A study of Mus musculus with 10 samples.

Results

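The 2 corticosteroid receptors of the mouse, Nr3c1 and Nr3c2, and 8 genes that respond to glucocorticoids or handle them were followed in the dentate gyrus between 4 and 12 weeks of age. The 8 are Fkbp5, Sgk1, Tsc22d3, Zbtb16, Pdk4, Plin4, Errfi1 and Hsd11b1. The genes were chosen by name, with earlier results of these data known, and make up 10 of the 19752 genes measured. Each was read through the probe set that the platform annotation assigns to that gene alone. Each of the 10 had 1 such probe set. The study hybridised total RNA of microdissected dentate gyri, the granule cell region of the hippocampus, to whole-transcript Affymetrix arrays. The groups were mice aged 4, 6, 8, 10 and 12 weeks, with 2 arrays at each age, and the strain is spelled C56BL/6J in the labels. No treatment, transgene or deletion is named for any group, and the sex is given as female throughout. All levels and differences below are on the log2 scale of the deposited values unless a fold is named, so a difference of 1 is a doubling. Changes over age are the coefficient of a straight line fitted with limma and scaled to the 8 weeks of the series, with standard errors, and a change counts as a rise or a fall where its p-value, adjusted over all genes, is under 0.05.

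Glucocorticoids, mainly corticosterone in the mouse, enter cells and bind receptors that wait in the cytoplasm in a complex with heat shock proteins. The mineralocorticoid receptor Nr3c2 binds corticosterone with high affinity and is abundant in the hippocampus, while the glucocorticoid receptor Nr3c1 binds it less tightly and is engaged by the daily peak and by stress. Loaded receptors move to the nucleus and bind a palindrome of short DNA arms near genes such as Fkbp5, Sgk1 and Tsc22d3, whose transcription then goes up. In bulk tissue RNA, fewer cells of a type and less RNA per cell cannot be told apart.

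Promoter sequences of responsive genes are shown first because the receptors act through DNA. The windows run from 250 bases before to 50 bases after an annotated start in RefSeq GRCm38.p6, and 16 windows matched 8 of the 10 genes, the others being Nr3c1 and Zbtb16. Each window was searched on both strands for the full palindrome (the arm AGAACA, any 3 bases, then the arm TGTTCT), for its core ACANNNTGT, which lies inside the full palindrome, and for the single arm AGAACA. The full palindrome was present in 1 of the 16 windows, a window of Sgk1, and in 3 of 32851 windows of all genes (0.00913%). The core was present in 2 of the 16, both of Sgk1, against 6.85% of all windows. The single arm was present in 4 of the 16, of Sgk1 and Tsc22d3, against 19.0% of all windows. Counted by gene, the palindrome was in 1 of the 8 (0.0111% of all genes with windows). The core was in 1 of the 8 (7.9%) and the arm in 2 of the 8 (21.3%). Printed below are the 250 bases before the start in the Sgk1 window with the palindrome, in the Tsc22d3 window with a single arm, and in the window of Pdk4, the gene of the 10 that passed the test of age. Capitals mark the matches, and all run 5′ to 3′ on the strand of the gene.
Sgk1, chr10:21993640-21993889, plus strand: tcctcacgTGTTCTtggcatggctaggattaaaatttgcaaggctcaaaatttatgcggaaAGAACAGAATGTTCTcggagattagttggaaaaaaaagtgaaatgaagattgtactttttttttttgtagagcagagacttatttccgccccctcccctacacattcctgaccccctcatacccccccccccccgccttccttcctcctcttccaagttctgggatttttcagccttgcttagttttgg
Tsc22d3, chrX:140600523-140600772, minus strand: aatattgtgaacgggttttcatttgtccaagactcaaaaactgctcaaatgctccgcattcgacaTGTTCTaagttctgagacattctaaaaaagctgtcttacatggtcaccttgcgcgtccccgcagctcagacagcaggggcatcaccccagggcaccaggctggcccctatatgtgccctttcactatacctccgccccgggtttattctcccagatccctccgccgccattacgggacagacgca
Pdk4, chr6:5496279-5496528, minus strand: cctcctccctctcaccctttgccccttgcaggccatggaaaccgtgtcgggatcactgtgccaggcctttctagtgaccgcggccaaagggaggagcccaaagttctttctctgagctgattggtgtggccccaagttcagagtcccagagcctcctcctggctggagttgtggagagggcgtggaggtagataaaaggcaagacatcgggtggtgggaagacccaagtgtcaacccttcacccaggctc
The palindrome of Sgk1 begins 189 bases before the start of the window printed, and the arm of Tsc22d3 185 bases before that of its own. Both genes had several windows, each with a different annotated start. None of the 3 motifs was found in the Pdk4 window. A match describes letters only, and a missing match says nothing about receptor binding.

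Pearson correlations across genes between arrays were 0.994 to 0.998, and array medians lay between 8.27 and 8.31. All 10 genes were on every array above a reference for dim signal, the 95th percentile of 1203 olfactory and related receptor genes, which averaged 7.01. All 8 granule neuron markers, among them Prox1 and C1ql2, had means above it too, and of these 1, Tdo2, fell with age (given below). Means above the reference were also seen for all 4 CA1, 9 astrocyte and 8 endothelial markers, and for 6 of 8 choroid plexus markers. Being above it therefore does not single out granule cells. The sex label and the data differed: Xist was below the dim reference on all 10 arrays, whereas Eif2s3y, Kdm5d and Uty of the Y chromosome were above it on all 10. On 6 weeks replicate 1 the mean of 8 choroid plexus markers was 9.22, against 7.60 to 7.80 on the other arrays.

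Neither receptor passed the test of age. Nr3c1 (chromosome 18, 39410545 to 39519421) had levels of 9.99 and 10.11 at 4 weeks, 9.96 and 9.96 at 6 weeks, 9.92 and 10.05 at 8 weeks, 9.93 and 9.99 at 10 weeks, and 9.99 and 9.95 at 12 weeks. With the ages ordered by their means, every pair of neighbours overlapped. The change over 8 weeks was -0.07 ± 0.06, with a 95% interval of -0.20 to 0.07 and an adjusted p of 0.75. It was -0.013 without 4 weeks replicate 2, the highest array, and -0.032 after quantile normalization.

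Nr3c2 (chromosome 8, 76898083 to 77245012) had levels of 11.70 and 11.68 at 4 weeks, 11.72 and 11.67 at 6 weeks, 11.70 and 11.73 at 8 weeks, 11.61 and 11.56 at 10 weeks, and 11.77 and 11.82 at 12 weeks. Both 12-week arrays were above all 8 younger ones, and both 10-week arrays were below the other 8. Changes fitted without both 12-week arrays, here and below, use 4 to 10 weeks but are still scaled to 8 weeks. The change over 8 weeks was 0.04 ± 0.07 (interval -0.12 to 0.20, adjusted p = 0.90), and its direction turned without 12 weeks replicate 2 (-0.021) or without both 12-week arrays (-0.12). The 12-week mean was 0.21 above the 10-week mean, with a limma p of 0.0083 before and 0.77 after adjustment.

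**Figure D1:**
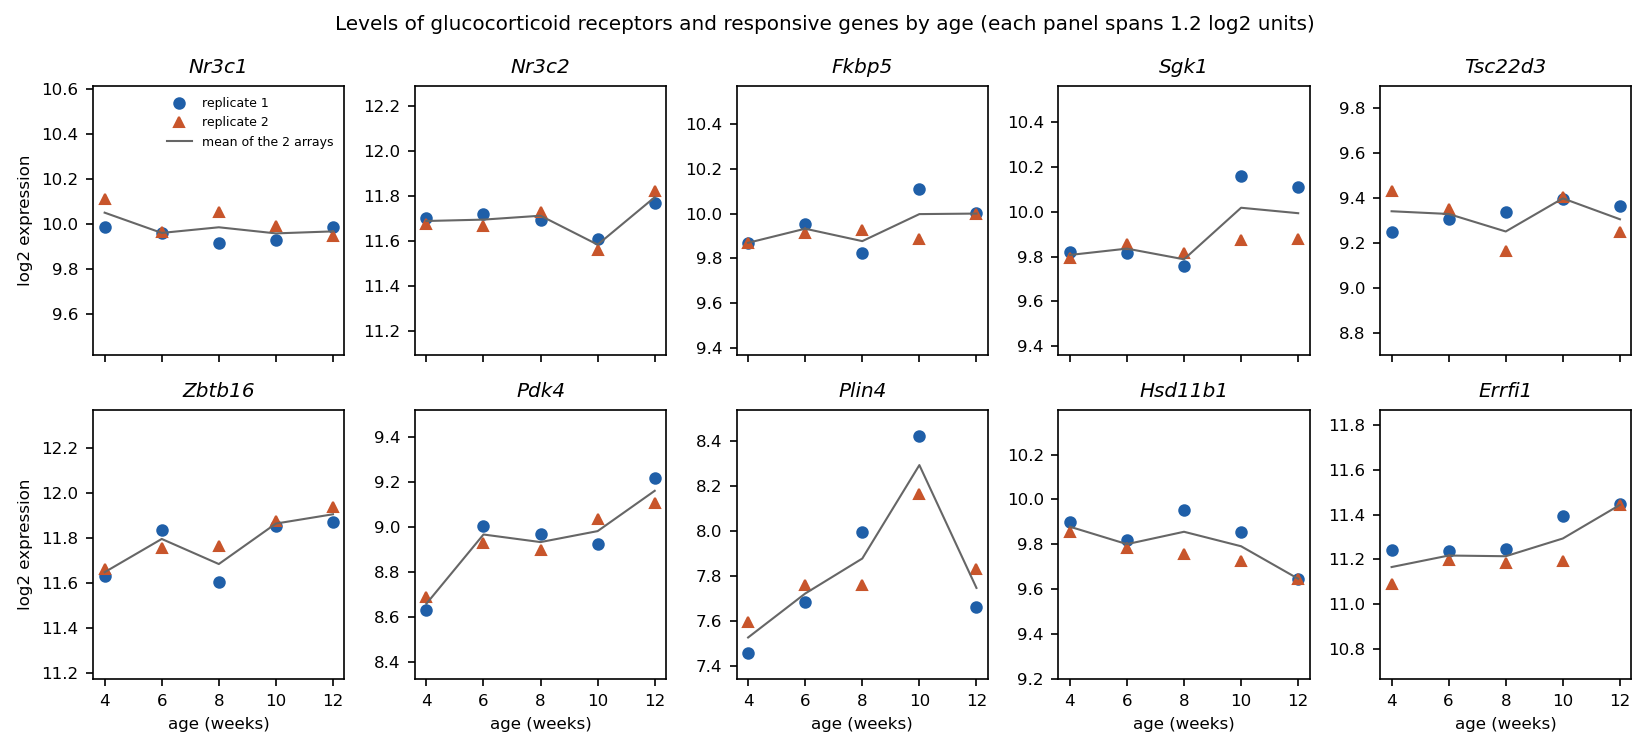
Log2 level (vertical axis, each panel spanning the same range) against age in weeks (horizontal axis) for each of the 10 genes, with 1 point per array and a line through the mean of the 2 arrays. Pdk4 lies at 8.63 and 8.69 at 4 weeks and at 9.22 and 9.11 at 12 weeks, while Nr3c1 stays between 9.92 and 10.11.

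Hsd11b1 (chromosome 1, 193221640 to 193264045) encodes the enzyme that regenerates corticosterone from its inactive keto form inside cells. It had levels of 9.90 and 9.86 at 4 weeks, 9.82 and 9.78 at 6 weeks, 9.95 and 9.76 at 8 weeks, 9.85 and 9.73 at 10 weeks, and 9.65 and 9.65 at 12 weeks. Both 12-week arrays were below all 8 younger ones, and no other neighbouring ages in the order of means were separate. The change over 8 weeks was -0.19 ± 0.07 (interval -0.35 to -0.03), with a limma p of 0.024 before and 0.32 after adjustment, so it did not pass.

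Pdk4 rose, and was the only one of the 10 genes to pass in the trend or between 12 and 4 weeks. Pdk4 (chromosome 6, 5483351 to 5496278) encodes a kinase that inhibits pyruvate dehydrogenase and so limits the oxidation of glucose. It had levels of 8.63 and 8.69 at 4 weeks, 9.01 and 8.93 at 6 weeks, 8.97 and 8.90 at 8 weeks, 8.93 and 9.04 at 10 weeks, and 9.22 and 9.11 at 12 weeks. Both 4-week arrays were below, and both 12-week arrays above, all the others, while the 3 ages between them overlapped. The rise over 8 weeks was 0.41 ± 0.08, or 1.33-fold, with a 95% interval of 0.23 to 0.59 and an adjusted limma p of 0.046. The mean was 9.16 ± 0.08 at 12 weeks and 8.66 ± 0.04 at 4 weeks (SD, n = 2 each), a difference of 0.50 ± 0.07 (SE), or 1.42-fold, with an adjusted limma p of 0.027. Both tests use the same 4-week and 12-week arrays.

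The call of Pdk4 rests on most of the arrays, and it was also lost in both tests when the fit included the replicate number as a block. The adjusted p of its trend was above 0.05 without 4 weeks replicate 1 (0.21) or replicate 2 (0.18), 6 weeks replicate 2 (0.061), 8 weeks replicate 2 (0.066), 10 weeks replicate 2 (0.088), 12 weeks replicate 1 (0.16) or replicate 2 (0.10), and without both 12-week arrays (0.30). That of the difference between 12 and 4 weeks was above 0.05 without 4 weeks replicate 1 (0.23) or replicate 2 (0.18), either 10-week array (0.060), or 12 weeks replicate 1 (0.20) or replicate 2 (0.11). With single arrays left out, the change itself stayed between 0.35 and 0.45 in the trend and between 0.45 and 0.56 for 12 against 4 weeks.

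Plin4 (chromosome 17, 56100587 to 56109948), which encodes a coat protein of lipid droplets, had its highest levels at 10 weeks. It had levels of 7.46 and 7.59 at 4 weeks, 7.68 and 7.76 at 6 weeks, 8.00 and 7.76 at 8 weeks, 8.42 and 8.16 at 10 weeks, and 7.66 and 7.83 at 12 weeks. Both 10-week arrays were above, and both 4-week arrays below, all the others. The 12-week mean differed from the 10-week mean by -0.55 ± 0.12, with a limma p of 0.0010 before and 0.58 after adjustment. An F-test over any ages gave an adjusted limma p of 0.21 (0.035 with trended and robust variances), and the linear change was 0.41 ± 0.20 (interval -0.02 to 0.83), so none of these passed in the fits of standard variance. Without 12 weeks replicate 1 the linear change was 0.62 (adjusted p = 0.24), and without both 12-week arrays it was 0.98 and passed (adjusted p = 0.034). The 0.98 is a slope over 4 to 10 weeks scaled to 8 weeks, so it extends past the ages fitted. The measured means of Plin4 were 7.53 at 4 weeks, 8.29 at 10 weeks and 7.75 at 12 weeks. The spread of the 5 age means was 0.77 for Plin4 and 0.50 for Pdk4, at the 99.7th and 98.2nd percentiles of all genes.

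Zbtb16 and Errfi1 had their highest means at 12 weeks but did not pass after adjustment. Zbtb16 (chromosome 9, 48651797 to 48836225), the gene of the zinc finger transcription factor PLZF, had levels of 11.63 and 11.66 at 4 weeks, 11.83 and 11.76 at 6 weeks, 11.60 and 11.76 at 8 weeks, 11.85 and 11.88 at 10 weeks, and 11.87 and 11.94 at 12 weeks. The 4 arrays of 10 and 12 weeks were above the 6 younger ones. The share of all genes with this split was not counted. The change of Zbtb16 was 0.23 ± 0.07, with a limma p of 0.0078 before and 0.20 after adjustment.

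Errfi1 (chromosome 4, 150853796 to 150868889), which encodes an inhibitor of the epidermal growth factor receptor, had levels of 11.24 and 11.09 at 4 weeks, 11.24 and 11.20 at 6 weeks, 11.25 and 11.18 at 8 weeks, 11.39 and 11.19 at 10 weeks, and 11.45 and 11.44 at 12 weeks. Both 12-week arrays were above all 8 younger ones, and the 4 younger ages overlapped. Its change was 0.25 ± 0.07, with a limma p of 0.0049 before and 0.17 after adjustment.

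Sgk1, Fkbp5 and Tsc22d3, often used as readouts of receptor activity, did not pass either. Sgk1 (chromosome 10, 21882184 to 21999903), the gene with the palindrome printed above, encodes a kinase that regulates ion channels and transporters. It had levels of 9.82 and 9.79 at 4 weeks, 9.82 and 9.85 at 6 weeks, 9.76 and 9.82 at 8 weeks, 10.16 and 9.87 at 10 weeks, and 10.11 and 9.88 at 12 weeks. The 4 arrays of 10 and 12 weeks were above the 6 younger ones, but replicates of these 2 ages differed more than the younger arrays did among themselves. How many of all genes split like this was not counted. The change was 0.22 ± 0.09, with a limma p of 0.037 before and 0.38 after adjustment.

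Fkbp5 (chromosome 17, 28398753 to 28486149) encodes a co-chaperone that lowers the affinity of Nr3c1 for hormone. It had levels of 9.87 and 9.87 at 4 weeks, 9.95 and 9.91 at 6 weeks, 9.83 and 9.93 at 8 weeks, 10.11 and 9.89 at 10 weeks, and 10.00 and 10.00 at 12 weeks. Neighbouring ages in the order of means overlapped throughout, and the change was 0.13 ± 0.07 (interval -0.02 to 0.28, adjusted p = 0.52). Tsc22d3 (X chromosome, 140539528 to 140600522), the gene of the leucine zipper protein GILZ, had levels of 9.25 and 9.43 at 4 weeks, 9.30 and 9.35 at 6 weeks, 9.34 and 9.17 at 8 weeks, 9.39 and 9.40 at 10 weeks, and 9.36 and 9.25 at 12 weeks. Its neighbouring ages overlapped as well, and the interval of its change was -0.17 to 0.17.

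**Figure D2:**
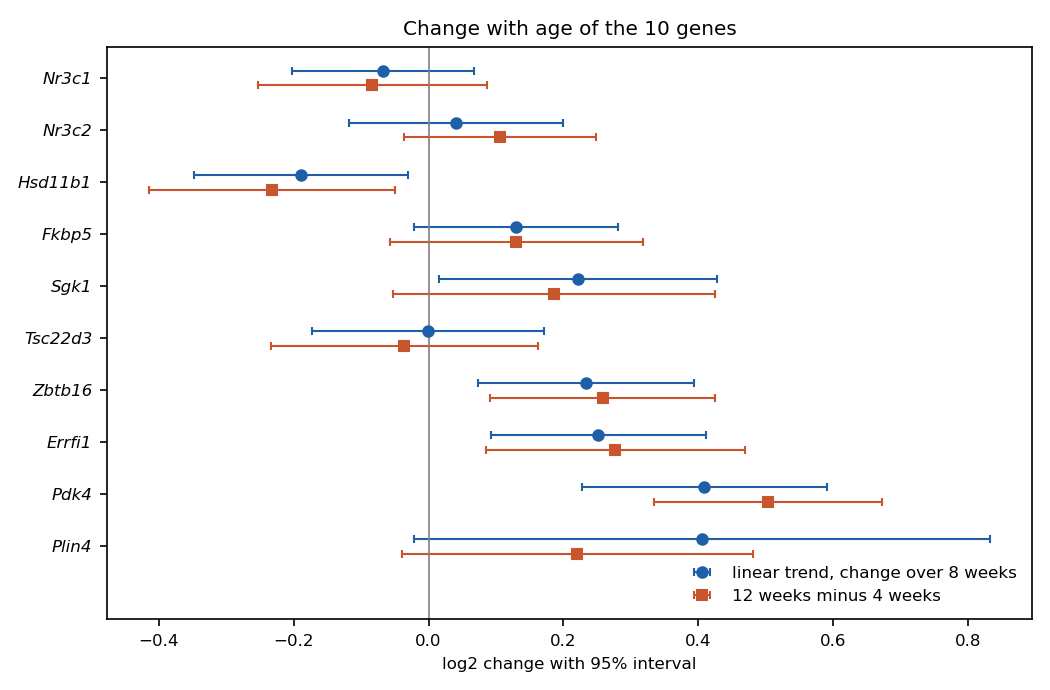
Log2 change over 8 weeks from the straight line, and log2 difference of 12 from 4 weeks, for each of the 10 genes, with 95% intervals from limma as bars. Pdk4 stands at 0.41 and 0.50, and the intervals of Nr3c1, Nr3c2, Fkbp5, Tsc22d3 and Plin4 include 0 in both.

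The 10 genes were chosen with earlier results of these data known. Their counts here and below, set beside the shares of all genes, are therefore descriptions and not tests of the group. In the trend 1 of the 10 genes passed as higher and 0 as lower, against 0.147% and 0.673% of all genes. At a limma p under 0.05 before adjustment, 4 of the 10 were higher (Pdk4, Errfi1, Zbtb16 and Sgk1) and 1 was lower (Hsd11b1), against 4.41% and 7.28% of all genes. The change was above 0 for 7 of the 10, as for 51.2% of all genes, and its median was 0.18, beside 0.0034 over all genes. Quantile normalization split the calls over all genes into 61 higher and 132 lower, where the deposited values gave 29 and 133.

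Between 12 and 4 weeks 1 of the 10 passed as higher and 0 as lower, against 0.127% and 0.39% of all genes. Before adjustment 3 of the 10 were higher (Pdk4, Errfi1 and Zbtb16) and 1 was lower (Hsd11b1), against 4.15% and 5.43%. Both 12-week arrays were above both 4-week arrays for 7 of the 10 and below them for 2 (Nr3c1 and Hsd11b1), against 21.6% and 22.2% of all genes. For Nr3c1 this rests on 9.98737 on 12 weeks replicate 1 against 9.98745 on 4 weeks replicate 1. The difference was above 0 for 7 of the 10, as for 50.3% of all genes, with a median of 0.16, beside 0.00059 over all genes. Quantile normalization gave 55 higher and 86 lower calls over all genes, where the deposited values gave 25 and 77.

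Against all 8 younger arrays, both 12-week arrays were higher for 3 of the 10 (Nr3c2, Pdk4 and Errfi1) and lower for 1 (Hsd11b1), as for 3.01% and 4% of all genes. In the limma test of 12 weeks against the mean of the younger ages 0 of the 10 passed, against 0.0962% of all genes, and before adjustment 4 were higher and 1 lower, against 3.23% and 5.02%. The calls over all genes in that comparison were 7 higher and 12 lower, or 12 and 12 with each array centred on its median. The F-test passed 0 of the 10, against 0.167% of all genes, and 3 of the 10 (Plin4, Pdk4 and Zbtb16) had a p under 0.05 before adjustment, against 8.46%. Between neighbouring ages limma passed 0 of all genes (0%), and the share with a p under 0.05 before adjustment was 4.13% for 6 against 4 weeks, 6.25% for 8 against 6, 4.79% for 10 against 8 and 5.59% for 12 against 10.

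The mean centred level of the 7 genes that glucocorticoids induce (the 10 without the receptors and Hsd11b1) was -0.15 and -0.12 at 4 weeks, -0.02 and -0.03 at 6 weeks, -0.03 and -0.07 at 8 weeks, 0.18 and 0.07 at 10 weeks, and 0.10 and 0.07 at 12 weeks. The 4 arrays of 10 and 12 weeks were above the 6 younger ones, a split whose share over all genes was not counted. All 7 genes had a higher mean at 10 than at 8 weeks, as had 39.9% of all genes. On 8 weeks replicate 1, 3 of the 7 were lowest. Age means were highest at 12 weeks for 5 of the 10 genes, as for 17.8% of all genes, and lowest at 4 weeks for 5 of the 10, as for 23.8%.

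Some single arrays stood out for several of the 10 genes. The array of 10 weeks replicate 1 was the highest of all for 3 of the 10 genes (Fkbp5, Sgk1 and Plin4), as for 5.59% of all genes. It also had the lowest mean of all arrays over the 8 endothelial (8.77), 7 mural (8.75) and 7 meningeal markers (8.63). Over the 4 CA1 pyramidal markers its mean was the highest (9.97), with 9.95 on 6 weeks replicate 2. The part of these cells in the levels of Fkbp5, Sgk1 and Plin4 was not tested. The array of 8 weeks replicate 1 was the lowest for 4 of the 10 (Nr3c1, Fkbp5, Sgk1 and Zbtb16), as for 15.2% of all genes. This array also had the lowest SD over its probe sets (2.12, against 2.16 to 2.22 on the others) and the highest dim reference (7.18). Its mean correlation with the other arrays was the lowest (0.9949). The part of this in the levels of these 4 genes was not tested. Fkbp5 and Sgk1 had a Pearson r of 0.86 over the 10 arrays and of 0.71 without 10 weeks replicate 1, given as a description of arrays that share age.

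**Figure D3:**
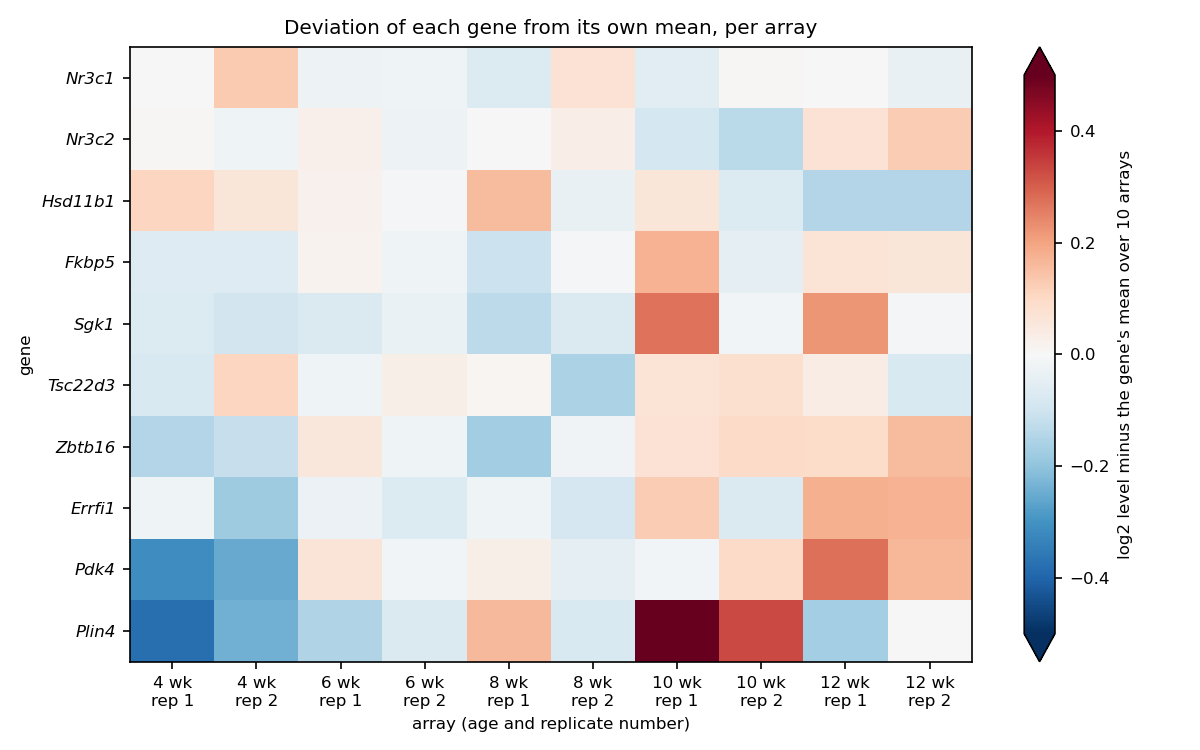
Log2 level of each of the 10 genes (rows) on each array (columns, ages from left to right) minus the gene's mean over the 10 arrays, as colour clipped at 0.5 in either direction. The 7 induced genes average -0.15 on 4 weeks replicate 1 and 0.18 on 10 weeks replicate 1.

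Out of 13819 candidate genes, those most like the 7-gene mean over the 10 arrays were Rapgef5 (Pearson r = 0.97), Lrrc8c (0.93), Sesn1 (0.93), Lratd1 (0.91) and Luzp2 (0.91). Those most like Nr3c1 were Ckap5 (0.95), Gtf2h1 (0.94), Nrp2, Slc22a23 and Hcrtr2 (0.92 each). Those most like Nr3c2 were Stt3a, Abhd13, Tek, Cstad and Cntn1 (0.92 each). Each is the extreme of many correlations among arrays that share age, and is given as a description.

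Of 26 other glucocorticoid targets measured, 0 passed the trend as higher or lower, against 0.147% and 0.673% of all genes. Before adjustment 2 (Cebpb and Lcn2) were higher at a limma p under 0.05 and 0 were lower, against 4.41% and 7.28% of all genes. The median change was 0.07. The change was 0.03 ± 0.08 for the clock gene Per1, -0.02 ± 0.06 for the transcription factor gene Klf9, and 0.18 ± 0.11 for Nfkbia, the gene of an inhibitor of NF-kappa B. Cebpb, which encodes a transcription factor of metabolism and inflammation, had a change of 0.21 ± 0.07 (adjusted p = 0.19).

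Between 12 and 4 weeks 1 of the 26 passed as higher, against 0.127% of all genes. This was Lcn2, the gene of the iron-binding acute phase protein lipocalin 2. The list was chosen with earlier results of these data known, so its count is a description and not a test of glucocorticoid targets. Lcn2 had levels of 6.70 and 6.66 at 4 weeks, 8.54 and 7.47 at 6 weeks, 7.05 and 6.84 at 8 weeks, 7.09 and 7.06 at 10 weeks, and 10.42 and 9.69 at 12 weeks. Both 12-week arrays were above all the others, and both 4-week values lay under the dim reference of their array. Set against the dim reference of the 4-week arrays, Lcn2 was at least 8.68-fold higher at 12 weeks (adjusted p = 0.0029 for the measured levels, limma), and without 4 weeks replicate 1 or replicate 2 the adjusted p was 0.053 or 0.055.

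**Figure D4:**
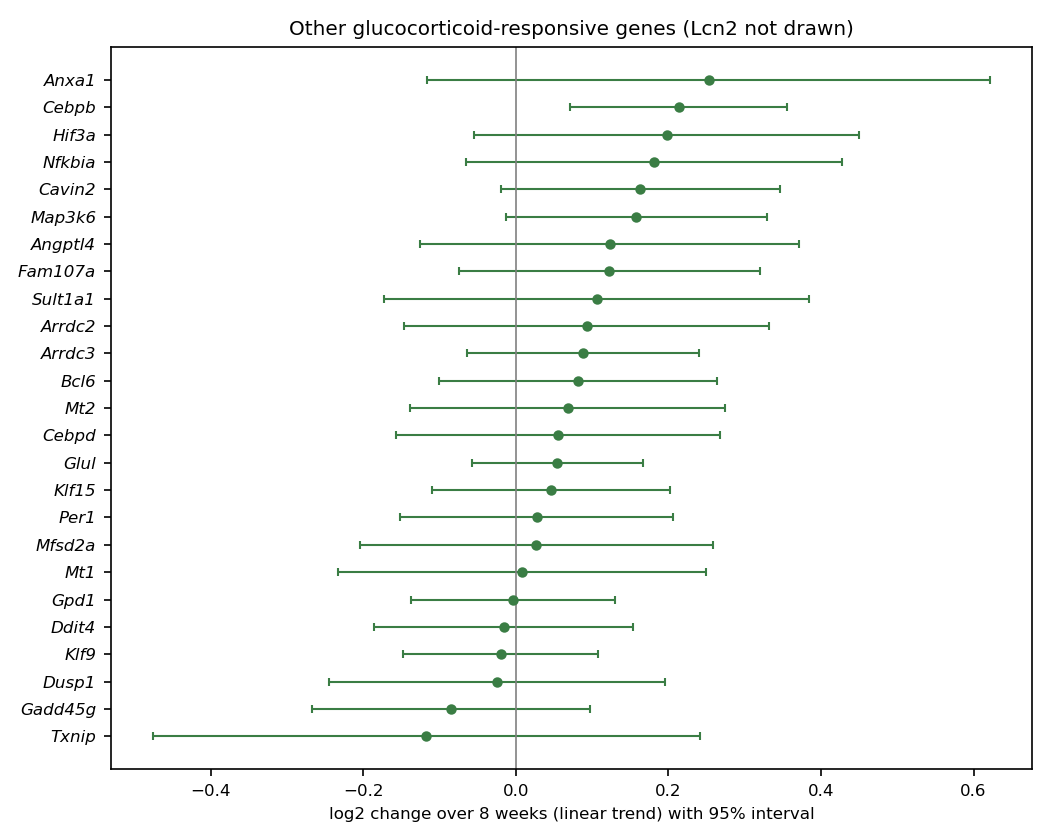
Log2 change over 8 weeks from the straight line, with 95% intervals as bars, for 25 of the 26 other glucocorticoid targets, Lcn2 being left off the scale. The mean of Anxa1 was under the dim reference. Per1 and Klf9 lie at 0.03 and -0.02, and Cebpb at 0.21.

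The proteins that hold or assist the receptors gave 0 calls in the trend, with a median change of -0.01 over 11 chaperones and immunophilins and of -0.02 over 10 coregulators. Hsp90aa1, a chaperone that keeps the receptor ready for hormone, had a change of 0.03 ± 0.05. Dnajb1, a co-chaperone that stimulates heat shock proteins, is named after its values were seen. Its change was 0.29 ± 0.11 (adjusted p = 0.32, limma). It was the 1 of the 11 chaperones and immunophilins under 0.05 before adjustment, and 0 of the 10 coregulators were. Over all genes 4.41% were higher at that threshold.

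Of 9 genes of steroid synthesis, conversion and transport 1 passed the trend as lower, against 0.673% of all genes. Cyp11a1, the side-chain cleavage enzyme that starts steroid synthesis, fell by 0.36 ± 0.06 (adjusted p = 0.025, limma). Its levels were 7.24 and 7.16 at 12 weeks, against 7.50 and 7.51 at 4 weeks. At 12 weeks Cyp11a1 lay near the dim references of its arrays, 6.98 and 7.04. Its adjusted p was between 0.051 and 0.093 without 4 weeks replicate 1 or 2, 6 weeks replicate 2, 10 weeks replicate 1 or 12 weeks replicate 1 or 2, and 0.16 without both 12-week arrays. Hsd11b2, which inactivates corticosterone, had a change of 0.11 ± 0.12. The 3 sex steroid receptors measured (Pgr, Esr1 and Esr2) gave 0 calls. Of 8 genes of the corticotropin-releasing hormone system 0 passed, with 0.22 ± 0.06 for the receptor Crhr1 (adjusted p = 0.17).

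Among the cell type markers, several of 1 list and single genes of 2 others passed. Of 7 oligodendrocyte genes 4 fell in the trend (Mog, Mag, Cnp and Cldn11, by 0.57 to 0.76), against 0.673% of all genes, and the mean of the list was 10.35 and 10.34 at 12 weeks, against 10.87 and 10.83 at 4 weeks. Cnp had an adjusted p of up to 0.072 without either 4-week array. Of 8 granule neuron markers 1 fell, Tdo2, a tryptophan dioxygenase gene, by 0.44 ± 0.08 (adjusted p = 0.032, limma), and 9 of 17 alternative fits lost this call, among them centring on array medians. Of 6 markers of CA2 and CA3 neurons 1 fell, Cacng5, the gene of an auxiliary subunit of glutamate receptors. It fell by 0.41 ± 0.07 (adjusted p = 0.018, limma). This call was lost in 5 of 17 alternative fits, namely those without a 4-week or a 12-week array or without both 12-week arrays. The markers of CA1 neurons, microglia, mural cells, meninges, choroid plexus and red blood cells gave 0 calls in the trend. Of 9 astrocyte genes 0 passed, with array means of the list between 11.17 and 11.33, and of 8 endothelial genes 0 passed, with array means between 8.77 and 9.21. The part of these cells in the level of Pdk4 was not tested.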

How the data were processed

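Total RNA of dentate gyri was measured on 2 arrays per age at 4, 6, 8, 10 and 12 weeks, grouped by sample title. The authors deposited 1 value per probe set, read here as a log2 level from its range (2.50 to 15.0). The log base, and how background was corrected and values summarized and normalized, are not given in the sources used here. The build was mm10, per the submitters' processing notes. Of 25254 probe sets the platform annotation named 1 gene for 21496, several for 1565 and none for 2193, and only the first kind was kept. The probe set of highest mean stood for each of the 19752 genes, and no gene was filtered. Gene numbers were looked up in RefSeq GRCm38.p6, the source of coordinates and promoters (81 were missing, 0 symbols changed).

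All tests were two-sided in limma 3.58.1 (R 4.3.3) with default empirical Bayes, adjusted by Benjamini-Hochberg over all genes, with a threshold of 0.05. The linear fit had 8 residual degrees of freedom, and the fit with each age as a level, used for comparisons of ages, had 5. The fitting script was tested on simulated data. Nothing in the labels tells if same-age arrays come from separate animals, so p-values measure the spread between arrays, which may be technical, and the number of arrays limits precision. No scan date or batch was given. Each result was refitted with a replicate block, after quantile normalization or centring on array medians, without the dimmest 30% of genes, with trended and robust variances, with the mean of a gene's probe sets, with each array omitted, and, for the trend, without the 12-week arrays.

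Genes named are the 10; any gene of the target, steroid and corticotropin-releasing hormone lists; in other lists the first 3 measured and any that passed a test; and the 5 genes most correlated with each of 3 patterns. Genes outside this rule are marked as named after their values were seen. A gene under the dim reference on both 4-week arrays is given a lower bound against that reference in place of a difference. Members and lists were chosen with earlier results of these data known. Of 189 list genes 173 were measured.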

Additional observations from a re-analysis of the deposited data

How the results depend on the processing

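Over all genes the trend gave 162 calls, against 337 with the dimmest 30% left out, 363 with trended and robust variances and 51 without the 12-week arrays. The comparison of 12 with 4 weeks gave 102, against 66 with the replicate block, 210 without dim genes and 304 with robust variances. The comparison of 12 with 10 weeks gave 0, against 2 with quantile normalization, 3 without dim genes and 7 with robust variances. The comparison of 12 weeks with the younger ages gave 19, against 30, 40 and 71 in those settings, and that of 6 with 4 weeks gave 0, against 1, 3 and 11. The F-test gave 33, against 13 with the block, 69 without dim genes and 158 with robust variances. With each array left out in turn, the trend gave 35 to 279 calls, 12 against 4 weeks 13 to 188, 12 against 10 weeks 0 to 1, 12 weeks against the younger ages 0 to 34, 6 against 4 weeks 0 to 10, 8 against 6 weeks 0 to 1079 (1079 without 8 weeks replicate 2), 10 against 8 weeks 0 to 0 and the F-test 5 to 50. Of the 10 genes, 1 (Pdk4) was called in the trend and in 12 against 4 weeks, against 0 in both with the replicate block and 0 to 1 with arrays left out. Robust variances called 2 of the 10 in 12 against 4 weeks and 2 in the F-test. Deviations of same-numbered arrays from their age means, over all genes, correlated above 0.1 in 3 of 10 pairs of ages (range -0.34 to 0.16). These correlations cannot decide whether the numbers pair the arrays, because weak pairing could give values of this size. Without the 12-week arrays the trend of Plin4 was 0.98 (adjusted p = 0.034). The trend of Tsc22d3 was -0.00070 as deposited, but 0.036 with quantile normalization, 0.013 with median centring, 0.038 without the 12-week arrays and -0.044 to 0.060 with arrays left out, and its difference of 12 from 4 weeks was -0.13 to 0.055 with arrays left out. The trend of Nr3c2 was -0.12 without the 12-week arrays and -0.021 to 0.075 with arrays left out. Trends without the 12-week arrays were fitted over 4 to 10 weeks but scaled to 8 weeks, so they extend past the ages fitted. Of 554 refitted values of the 10 genes, 524 kept their direction and their side of the threshold, and the cause of the other differences was not tested. Most of the 554 belong to values that were not called in the main fit. Pdk4, the only gene of the 10 called there, lost its call in 9 of 17 refits of the trend. For 12 against 4 weeks it did so in 7 of 16.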

Other observations

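Immediate early, clock and acute phase genes were examined beside the glucocorticoid targets, between 12 and 4 weeks. Over all genes 0.127% passed as higher and 0.39% as lower in this comparison. The lists were chosen with earlier results of these data known, so their counts are descriptions. Ch25h, the gene of cholesterol 25-hydroxylase, passed as higher as 1 of 11 acute phase genes (adjusted p = 0.0063 in limma), against 0.127% of all genes. Its levels were 7.57 and 7.49 at 12 weeks, against 6.30 and 6.55 at 4 weeks, and it was above the dim reference on the 12-week arrays alone. Set against that reference on the 4-week arrays it was at least 1.51-fold higher at 12 weeks. Its adjusted p was above 0.05 without 4 weeks replicate 1 (0.093) or either 12-week array (0.094 and 0.069). Ptgs2, the gene of the prostaglandin-forming enzyme cyclooxygenase, passed as 1 of 12 immediate early genes, against 0.127% of all genes as higher. It rose by 0.48 ± 0.08 (adjusted p = 0.038 in limma). Its adjusted p was between 0.079 and 0.33 without any one array of 4, 6, 10 or 12 weeks. Of 11 clock genes 0 passed in limma. Nr1d1, a repressor of the clock named after its values were seen, differed by 0.44 ± 0.09 and Per3, a period gene, by -0.33 ± 0.07, with adjusted p-values of 0.086 and 0.088. Both had a limma p under 0.05 before adjustment. They were the 1 of the 11 that was higher and the 1 that was lower, against 4.15% and 5.43% of all genes.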
